A study of Homo sapiens with 10 samples.

Results

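The nuclear-encoded respiratory chain subunits were taken here as the protein-coding genes whose symbols belong to the families NDUFA, NDUFB, NDUFC, NDUFS, NDUFV, SDHA to SDHD, UQCR, COX4I, COX5, COX6, COX7, COX8, ATP5F1, ATP5M and ATP5P in the GENCODE 44 annotation. Of 78894 gene identifiers in the expression table, 89 met this rule, with 40 in complex I, 4 in complex II, 9 in complex III, 17 in complex IV and 19 in complex V. A filter that asked for normalized read counts of 10 or above in no fewer than 3 of the 10 libraries left 83 subunit genes among 29045 genes of all kinds. The 6 that did not pass were COX7B2, COX8C, COX6A2, COX7A1, COX4I2 and ATP5MGL, with 0, 23, 8, 34, 1 and 31 reads summed over the 10 libraries. Most of them are isoforms known from muscle, heart, lung or testis.

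The RNA came from HEK293T cells, an established line derived from human embryonic kidney. All cultures were kept for 24 h in one of 3 media, cysteine-free (0X, 2 libraries), complete (1X, 4 libraries) or with cysteine at 10 times the complete level (10X, 4 libraries). The labels call the libraries of a medium biological replicates and say no more about separate cultures, so p-values measure the spread between these libraries, which may in part be technical. The same 4 libraries in 1X serve as the control of both the 0X and the 10X comparison. Reads assigned to genes numbered 34836014 to 61654861 per library, and each subunit gene that passed the filter received between 13 and 29903 reads in a library. The line's markers PAX2, LHX1, NEFL, NEFM and LIN28B were present in every library, with the kidney factor PAX2 at 103 to 366 normalized counts and LHX1 at 174 to 232. The T cell genes CD3E and CD3D stood at 0 and at no more than 1.70, and the liver gene ALB at 3.40 to 21.0. Of the listed markers of other tissues, LCK of T cells reached 13.7, the breast markers ERBB2 and GATA3 stood at 2657 to 3365 and 401 to 610 with KRT7 at 0, and the cervix markers CDKN2A and KRT18 at 4334 to 6621 and 1825 to 3230 with KRT5 at no more than 3.40. In such bulk RNA, fewer cells that express a gene and less of its RNA per cell cannot be told apart.

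The respiratory chain of the inner mitochondrial membrane passes electrons from NADH (complex I) and succinate (complex II) through ubiquinone, complex III and cytochrome c to oxygen at complex IV, and complex V, the ATP synthase, uses the proton gradient made on the way. Complexes I, III, IV and V are assembled from subunits of both genomes: a few hydrophobic core proteins come from mitochondrial DNA, and all other subunits, with every subunit of complex II, are made from nuclear genes and imported. Several subunits carry iron-sulfur clusters, for which cysteine is the source of sulfur.

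In 10X medium most subunit genes were lower than in complete medium. Of the 83 genes, 75 fell and 2 rose at an adjusted p of 0.01 or less in limma, a linear model of log2(normalized count + 1) fitted over all 29045 genes. The 75 are 90.4% of the subunit genes, where 22.9% of all genes fell, and the 2 that rose, NDUFA4L2 and COX7A2L, compare with 23.1% of all genes. The median log2 difference of the subunit genes was -0.50, against 0.014 for all genes and -0.095 for 7900 abundant protein-coding genes with a mean of 1000 or more in 1X, of which 42.6% fell. The libraries of the 2 media did not overlap for 77 of the 83 genes, for 14993 of all 29045 genes and for 5821 of the 7900 abundant ones. Falls reached from -0.18 for UQCRC2, a core protein of complex III, to -1.52 for ATP5MC1, 1 of the genes of the ATP synthase rotor ring. Complex I had 36 genes lower and 1 higher of 40 (median -0.57), complex II 4 lower of 4 (-0.38), complex III 9 lower of 9 (-0.33), complex IV 8 lower and 1 higher of 12 (-0.41) and complex V 18 lower of 18 (-0.52). The genes that passed in neither direction were NDUFS1, NDUFS7, NDUFV3, COX6A1, COX4I1 and COX6B2. Of the 89 genes 48 share exon bases with another annotated gene and 50 have named pseudogenes. NDUFC2-KCTD14 and ATP5MF-PTCD1 are readthrough genes that share exons with NDUFC2 and ATP5MF. They share 99.6% and 93.4% of their exon bases with other genes. Their mean normalized counts in 1X were 2901 and 3632, beside 3571 for NDUFC2 and 4676 for ATP5MF. The counts and medians given here hold both genes of each pair, and whether the same reads were counted in both was not tested. Among the 36 genes that passed the filter and share no exon bases, 34 fell and 1 rose in 10X (median -0.53). Of the 33 genes that passed and have no named pseudogene, 27 fell and 2 rose (81.8% lower, median -0.50). Of the 50 with named pseudogenes, 48 fell (96.0%, median -0.50).

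Without cysteine the shift was in the same direction for fewer genes. In 0X against 1X, 25 subunit genes fell and 2 rose, 30.1% lower where 8.51% of all genes and 20.8% of the abundant ones fell, and where 7.39% of all genes rose. Among other abundant genes with transcripts under 1000 bases 30.0% fell, beside 26.5% of the subunit genes of such length. Among longer ones 20.2% fell, beside 35.3% of the longer subunit genes. The median was -0.14, against 0.002 for all genes and -0.063 for the abundant ones. Of the 33 genes without named pseudogenes, 6 fell and 2 rose in 0X (median -0.10). Their share of 18.2% lower was below the 20.8% of the abundant genes. Of the 50 with named pseudogenes, 19 fell (38.0%, median -0.18). Complex II was the complex with the most negative median in 0X (-0.40, 3 of 4 genes lower), followed by complex III (-0.22, 3 of 9) and complex V (-0.22, 7 of 18), while complex I had 11 of 40 lower and 2 higher (-0.097) and complex IV 1 of 12 lower (-0.078). With 2 libraries in 0X the number of calls rested on both: without 0X replicate 1 it was 3 and without 0X replicate 2 it was 6, and it was 3 when no filter on low values was applied. The lower calls were then 2 of 83 subunit genes beside 657 of 29045 genes without replicate 1, 5 beside 573 without replicate 2, and 3 beside 346 of 57308 without a filter. The share of subunit genes that fell without replicate 1 was therefore near that of all genes. Set side by side, 25 genes were lower in both media, 49 passed as lower in 10X alone, COX7A2L passed as higher in 10X alone, NDUFA4L2 was higher in both, NDUFA7 was higher in 0X and lower in 10X, and 6 passed in neither.

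**Figure D1:**
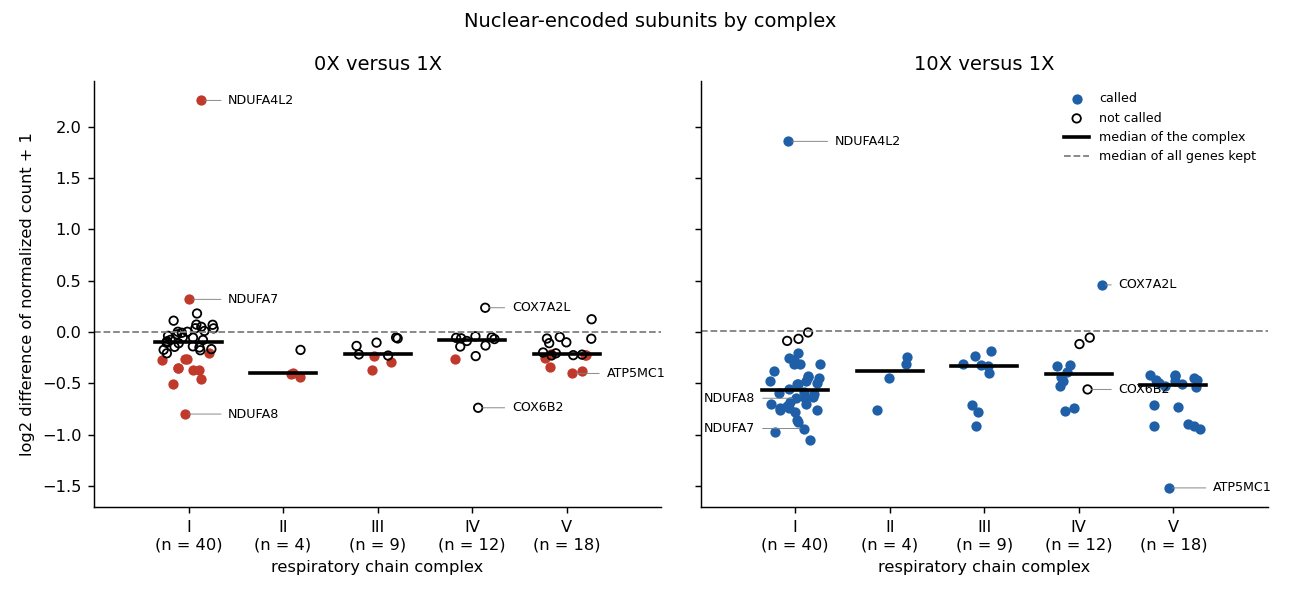
Log2 difference of normalized count + 1 from 1X (y axis) for each of the 83 subunit genes, by respiratory chain complex (x axis), in 0X (left) and in 10X (right). Filled points passed an adjusted p of 0.01, open points did not, thick lines are the median of each complex and the dashed line the median of all 29045 genes. In 10X the 5 medians lie between -0.57 and -0.33, and NDUFA4L2 and COX7A2L stand above 0.

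Compared directly, 10X had 65 subunit genes lower and 2 higher than 0X, 78.3% lower where 23.6% of all genes and 37.4% of the abundant genes were lower and 24.4% of all genes were higher. The median difference between these media was -0.36. The 3 largest falls were NDUFA7 with -1.26, ATP5MC1 with -1.12 and NDUFB10 with -0.95, and the 2 rises were COX7A2L with 0.22 and SDHB with 0.17. The COX7A2L rise no longer passed without 0X replicate 2 (limma adjusted p = 0.0117) or without the filter on low values (limma adjusted p = 0.0773).

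Added together, the subunit genes took a smaller part of the RNA in 10X. Their summed normalized counts were 344090 ± 9185 in 1X (SD, n = 4), 310453 ± 3439 in 0X (n = 2) and 246484 ± 4604 in 10X (n = 4), which is 0.833%, 0.770% and 0.613% of the counts outside the mitochondrial genome. These sums hold the readthrough genes NDUFC2-KCTD14 and ATP5MF-PTCD1 as well as NDUFC2 and ATP5MF. The median over the 83 genes of each library's distance from the 1X mean was -0.54, -0.50, -0.49 and -0.45 in 10X, -0.15 and -0.14 in 0X, and between -0.024 and 0.054 in 1X, so that no library of one medium reached into the range of another. In the complexes the order of the media was the same except in complex II, where the 0X libraries (-0.42 and -0.38) overlapped the 10X libraries (-0.42 to -0.35).

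**Figure D2:**
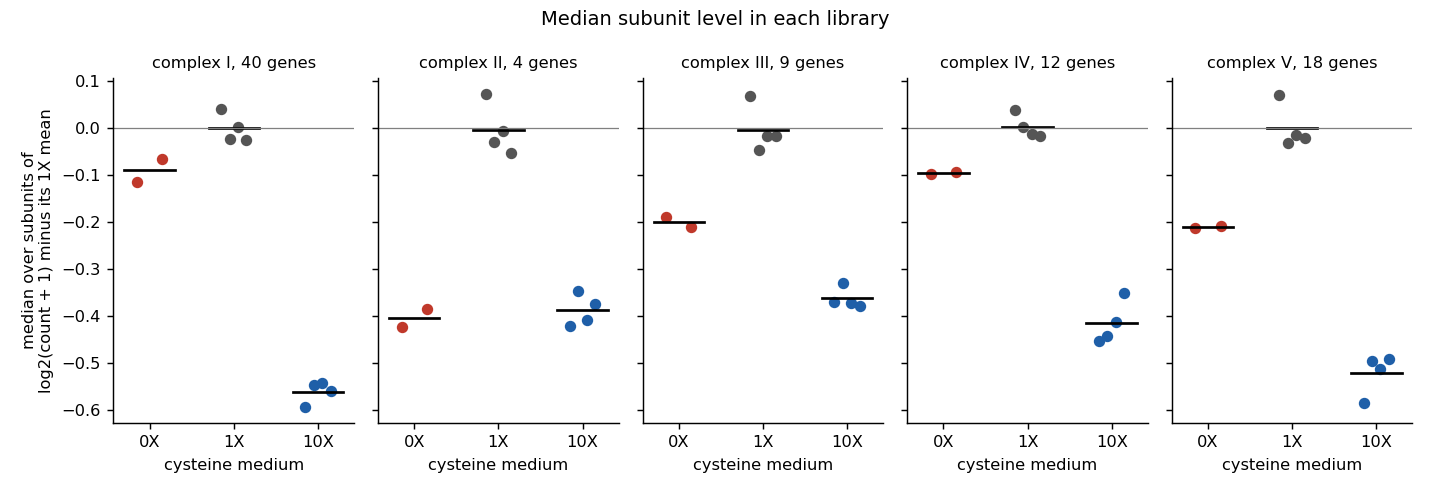
Median over the subunit genes of log2(normalized count + 1) minus the gene's mean in 1X (y axis), in each library (points) of 0X, 1X and 10X medium (x axis), 1 panel for each complex. Lines are the mean of the libraries. The 10X libraries lie lowest for complexes I, III, IV and V, and together with the 0X libraries for complex II.

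The promoters of the 3 genes with the largest falls in 10X, and of SDHB, the iron-sulfur subunit of complex II that fell in both media, are printed here so that these genes can be compared in sequence. They are the 250 bases before the RefSeq start in GRCh38.p14, ATP5MC1 at chr17:48892537-48892786, plus strand, NDUFB3 at chr2:201071751-201072000, plus strand, NDUFB10 at chr16:1959288-1959537, plus strand and SDHB at chr1:17054033-17054282, minus strand. Capitals mark matches, on either strand, to letters bound by factors known to act on respiratory or stress genes.
ATP5MC1: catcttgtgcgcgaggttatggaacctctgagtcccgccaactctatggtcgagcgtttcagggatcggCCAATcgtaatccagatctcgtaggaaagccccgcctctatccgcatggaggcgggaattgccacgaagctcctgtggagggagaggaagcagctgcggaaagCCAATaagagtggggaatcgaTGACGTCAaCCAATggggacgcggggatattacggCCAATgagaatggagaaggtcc
NDUFB3: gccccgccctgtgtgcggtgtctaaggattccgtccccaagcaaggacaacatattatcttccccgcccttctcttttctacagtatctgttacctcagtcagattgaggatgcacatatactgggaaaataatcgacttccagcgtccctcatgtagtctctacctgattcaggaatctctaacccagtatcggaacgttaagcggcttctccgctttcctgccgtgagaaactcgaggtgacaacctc
NDUFB10: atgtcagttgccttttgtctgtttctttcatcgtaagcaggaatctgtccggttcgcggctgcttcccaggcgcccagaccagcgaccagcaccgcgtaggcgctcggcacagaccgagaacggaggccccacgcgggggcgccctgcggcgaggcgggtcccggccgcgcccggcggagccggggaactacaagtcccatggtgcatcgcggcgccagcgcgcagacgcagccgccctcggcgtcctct
SDHB: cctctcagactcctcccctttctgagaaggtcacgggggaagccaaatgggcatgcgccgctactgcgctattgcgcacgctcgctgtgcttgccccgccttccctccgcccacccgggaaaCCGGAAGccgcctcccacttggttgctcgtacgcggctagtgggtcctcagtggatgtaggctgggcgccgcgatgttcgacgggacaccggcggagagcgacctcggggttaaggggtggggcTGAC
In ATP5MC1 the capitals are 4 copies of CCAAT, the letters of the factor NF-Y, and 1 TGACGTCA, the cyclic AMP response element. Both sets of letters were added to the search after this sequence had been seen. In SDHB they are CCGGAAG, the letters of ETS factors such as GABPA, and the first 4 bases of a TGACGTCA that runs across the start. NDUFB3 and NDUFB10 held none of the letters searched, which says only that these letters are not in this window.

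RefSeq promoters, taken from 250 bases before to 50 after the start, were at hand for 70 of the 89 genes and for 27305 genes in all. GCGCATGCG, the letters of the nuclear respiratory factor NRF1, stood in 10 of the 70 (14.3%) and in 2.1% of all promoters. CCGGAAG stood in 20 (28.6%) against 10.7%, and AAGATGGCG, the letters of YY1, in 8 (11.4%) against 1.8%. TGACGTCA was found in 5 (7.1%) against 2.0%. CCAAT was as common in subunit genes (24, 34.3%) as in all promoters (35.7%). At 4 or more copies it was present in 3 of the 70 subunit genes and in 289 of the 27305 promoters (1.06%). The counts for TGACGTCA and for 4 or more copies of CCAAT include ATP5MC1, whose sequence led to the search for these letters. They are therefore a description only. ACGTG, the core of the hypoxia response element, stood in 18 (25.7%) against 21.6%, TGACNNNGC, the antioxidant response element, in 10 (14.3%) against 13.6%, and TGATGNAA, the amino acid response element, in 1 (1.4%) against 3.7%. NDUFA4L2 was not among the 70, so these letters were not looked for in its promoter. The median log2 difference in 10X was -0.49 for subunit genes with the NRF1 letters and -0.50 for those without, and -0.46 and -0.51 for the ETS letters. The genes with the YY1 letters had a median of -0.31 and those without -0.51, a description over 8 genes.

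Complex I is built from a module that takes electrons from NADH (N), a module that passes them to ubiquinone (Q) and a membrane arm that moves protons. In the N module 8 of 10 genes were lower in 10X (median -0.53), and in 0X 2 were lower and 1 higher (median -0.096). The share lower in 10X was 80.0%, beside 22.9% of all genes and 42.6% of the abundant ones. In 0X it was 20.0%, beside 8.51% of all genes and near the 20.8% of the abundant ones. NDUFV1 binds the flavin that accepts electrons from NADH, and its normalized counts were 5967, 5825, 6220.2 and 6109.9 in the 1X libraries, 6073 and 6421 in the 0X libraries and 4270.1, 4361, 4545 and 4516 in the 10X libraries. The 10X libraries lay below all others and the 0X and 1X libraries overlapped, with a difference of -0.45 (SE 0.040, limma adjusted p = 4.66e-08) in 10X. NDUFV2, the neighbouring iron-sulfur subunit, measured 2133, 2053, 2118 and 2059 in the 1X libraries, 1806 and 1892 in the 0X libraries and 1330.1, 1294, 1395 and 1366 in the 10X libraries. It was lowest in 10X without overlap, with a difference of -0.64 (SE 0.047, limma adjusted p = 5.83e-09), and its 0X value of -0.18 did not pass. NDUFS1, the largest subunit, which holds several clusters, stood at 6365, 6499, 5429 and 6471 in the 1X libraries, 5583 and 5548 in the 0X libraries and 5591, 6208, 5757 and 5732 in the 10X libraries. The 0X and 10X libraries each overlapped 1X, where replicate 3 was the lowest of all 10 libraries, and the difference in 10X was -0.086 (SE 0.055, limma adjusted p = 0.194). NDUFV3, an accessory subunit of this module, had 3170.0, 3091, 3072 and 2954 in the 1X libraries, 3439.6 and 3196 in the 0X libraries and 3079, 3069, 3132 and 2971 in the 10X libraries, a difference of -0.004 (SE 0.042, limma adjusted p = 0.943) with overlapping groups.

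The other N module genes encode accessory subunits. NDUFS4, in which mutations cause Leigh syndrome, had 915, 836, 936 and 729 in the 1X libraries, 932 and 997 in the 0X libraries and 643, 709, 633 and 625 in the 10X libraries. It was lower in 10X, at -0.38 (SE 0.079, limma adjusted p = 5.22e-04), while 0X overlapped 1X. NDUFS6, which binds zinc, had 2663, 2395, 2486 and 2521 in the 1X libraries, 1794 and 1746 in the 0X libraries and 1375, 1462, 1494 and 1617 in the 10X libraries. Its groups did not overlap and it fell in both media, with log2 differences of -0.51 (SE 0.064, limma adjusted p = 8.73e-05) in 0X and -0.76 (SE 0.055, limma adjusted p = 4.31e-09) in 10X. NDUFA2, a thioredoxin-fold subunit, measured 1634, 1670.2, 1733 and 1646 in the 1X libraries, 1423 and 1358 in the 0X libraries and 1172, 1193, 1258 and 1189 in the 10X libraries. Both media lay below 1X, with -0.27 (SE 0.066, limma adjusted p = 0.00891) in 0X and -0.47 (SE 0.050, limma adjusted p = 3.71e-07) in 10X. NDUFA6, of the LYR motif family that binds the acyl carrier protein, measured 1713, 1592, 1589 and 1580.1 in the 1X libraries, 1487 and 1637 in the 0X libraries and 1049.6, 1147, 1127 and 994 in the 10X libraries. In 10X it was lower, at -0.59 (SE 0.058, limma adjusted p = 1.81e-07), and 0X overlapped 1X. NDUFA12 had 2135, 2038, 2069 and 1826 in the 1X libraries, 1823 and 1833 in the 0X libraries and 1151, 1248, 1242 and 1178 in the 10X libraries, with 10X lowest, at -0.74 (SE 0.057, limma adjusted p = 8.13e-09), and 0X overlapping 1X.

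NDUFA7, the last gene of the N module, moved in opposite directions. Its normalized counts were 1473, 1539, 1572 and 1491 in the 1X libraries, 1852 and 1937 in the 0X libraries and 742, 789.9, 814 and 819.9 in the 10X libraries. The 3 media did not overlap, 0X being highest and 10X lowest. The difference was 0.32 (SE 0.066, limma adjusted p = 0.00287) in 0X and -0.94 (SE 0.055, limma adjusted p = 2.89e-10) in 10X. The rise in 0X no longer passed without the filter on low values (limma adjusted p = 0.017). It rested on both 0X libraries, at 0.35 without 0X replicate 1 and 0.29 without 0X replicate 2. NDUFA7 lies at chr19:8308768-8321375, minus strand, and 32.5% of its exon bases are shared with RPS28 on the other strand and with a readthrough transcript gene, ENSG00000167774, on the same strand. The readthrough gene differed by 0.28 in 0X and -0.99 in 10X, and RPS28, a ribosomal protein gene, by 0.068 and 0.22 on the log2 scale. The part of shared reads in the NDUFA7 values was not tested.

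Among genes of the Q module, which passes electrons to ubiquinone, NDUFS8, NDUFS3, NDUFA5 and NDUFA9 were lower in 10X and NDUFA9 was also lower in 0X. NDUFS7, which carries the last cluster before ubiquinone, had 2329, 2161, 2305 and 2389 in the 1X libraries, 2307 and 2399 in the 0X libraries and 2192, 2159, 2128 and 2292 in the 10X libraries. The 10X libraries overlapped 1X, and the difference was -0.066 (SE 0.048, limma adjusted p = 0.255). NDUFS7 shares 51.4% of its exon bases with 2 genes on the other strand, and the part of shared reads in its values was not tested. NDUFS8, a subunit with clusters between NDUFS1 and NDUFS7 in the electron path, measured 3081, 2810.4, 3067 and 3114 in the 1X libraries, 2973 and 3069.9 in the 0X libraries and 2147, 2129.5, 2246 and 2377 in the 10X libraries. It fell in 10X, at -0.44 (SE 0.050, limma adjusted p = 1.06e-06), and in 0X the libraries overlapped 1X. NDUFS3, a core subunit without a cluster, measured 3849, 3806, 3726 and 3880.1 in the 1X libraries, 3161 and 3454 in the 0X libraries and 3062, 2985, 3051 and 3221 in the 10X libraries. In 10X it was lower, at -0.31 (SE 0.041, limma adjusted p = 6.17e-06), and the 0X libraries also lay below 1X, with a difference that did not pass, -0.21 (SE 0.058, limma adjusted p = 0.0166). NDUFA5, an accessory subunit, had 2327, 2335, 2328 and 2078 in the 1X libraries, 2167 and 2245 in the 0X libraries and 1735, 1875, 1809 and 1898 in the 10X libraries, a difference of -0.31 (SE 0.052, limma adjusted p = 8.18e-05) in 10X, and overlap of 0X and 1X. NDUFA9, which binds NADPH, had 3098, 2951, 2912 and 2755 in the 1X libraries, 2259.6 and 2281 in the 0X libraries and 2394, 2664, 2393 and 2718 in the 10X libraries. It fell in 0X, at -0.37 (SE 0.063, limma adjusted p = 8.14e-04). Its 10X value of -0.20 (SE 0.054, limma adjusted p = 0.0037) no longer passed without a filter, when library totals were made equal, after quantile normalization, or when 1X replicate 1, 1X replicate 2, 10X replicate 1 or 10X replicate 3 was left out (limma adjusted p of 0.0120 to 0.0843).

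Of 24 genes of the membrane arm, 23 were lower and 1 higher in 10X (median -0.62), and 8 were lower and 1 higher in 0X (median -0.11). These are 95.8% lower in 10X, beside 22.9% of all genes and 42.6% of the abundant ones. In 0X they are 33.3% lower, beside 8.51% and 20.8%. NDUFB3, an accessory subunit, had 1649, 1606, 1698 and 1534 in the 1X libraries, 1325 and 1227 in the 0X libraries and 713, 837, 816 and 768 in the 10X libraries. Both media lay below 1X and 10X lay lowest, with differences of -0.35 (SE 0.071, limma adjusted p = 0.0028) in 0X and -1.05 (SE 0.061, limma adjusted p = 2.75e-10) in 10X. NDUFB10, a subunit on the side of the intermembrane space, had 7595, 7127, 7381 and 6907 in the 1X libraries, 7240.2 and 7042 in the 0X libraries and 3689.8, 3434, 3869 and 3786 in the 10X libraries. Its 0X libraries fell within the 1X range, and in 10X it was lower, at -0.97 (SE 0.046, limma adjusted p = 1.91e-11). NDUFA8, also on that side, had 2426, 2070.4, 2145 and 2359 in the 1X libraries, 1295 and 1285 in the 0X libraries and 1387, 1427, 1477 and 1455 in the 10X libraries. It was 1 of the 7 subunit genes with a lower fitted level in 0X than in 10X, a difference of 0.15 that did not pass, and its 1X libraries were all above both. Its log2 difference was -0.80 (SE 0.075, limma adjusted p = 7.86e-06) in 0X, the largest fall of any subunit gene there, and -0.65 (SE 0.056, limma adjusted p = 3.76e-08) in 10X. NDUFAB1, the mitochondrial acyl carrier protein, which also serves fatty acid and iron-sulfur cluster synthesis, measured 2530.3, 2364, 2659.8 and 2274 in the 1X libraries, 1700.4 and 1888 in the 0X libraries and 1631, 1685, 1587 and 1597 in the 10X libraries. Its differences were -0.45 (SE 0.076, limma adjusted p = 6.69e-04) in 0X and -0.59 (SE 0.054, limma adjusted p = 6.11e-08) in 10X, with no overlap between 1X and either medium. None of NDUFB10, NDUFA8 and NDUFAB1 shares exon bases with another gene, and NDUFB3 shares 11.8% of its own.

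NDUFA4 and its paralog NDUFA4L2 are kept with complex I by symbol, although NDUFA4 is now counted as a subunit of complex IV. NDUFA4 measured 3745, 3458, 3495 and 3336 in the 1X libraries, 3233 and 3421 in the 0X libraries and 2265, 2241, 2159 and 2315 in the 10X libraries. It was lower in 10X, at -0.64 (SE 0.047, limma adjusted p = 4.02e-09), and 0X overlapped 1X. NDUFA4L2, known as a target of the hypoxia-inducible factor, measured 29.4, 69.2, 57.9 and 40.6 in the 1X libraries, 223 and 232 in the 0X libraries and 191, 146, 178 and 178 in the 10X libraries. Every library of 0X and 10X was above every library of 1X. The difference was 2.26 (SE 0.289, limma adjusted p = 9.49e-05) in 0X and 1.86 (SE 0.213, limma adjusted p = 1.05e-06) in 10X, the largest rise of a subunit gene in both. Per kilobase of transcript, NDUFA4L2 made up 1.67 to 4.14% of the pair in 1X, 12.8 to 13.0% in 0X and 12.3 to 15.4% in 10X. It was the subunit gene of complex I with the lowest level per kilobase, 52.2 in 1X, where the median of complex I was 3159. NDUFA4L2 lies at chr12:57234903-57240715, minus strand, and 34 of its exon bases (1.2%) overlap SHMT2 on the other strand, a gene of mitochondrial serine metabolism. SHMT2 stood at 8408 to 8980 normalized counts in 1X, 16200.2 and 16743 in 0X and 15942 to 17414 in 10X, a log2 difference of 0.95 and 0.97, and its part in the NDUFA4L2 values was not tested. Without NDUFA4 and NDUFA4L2, 35 of 38 complex I genes were lower in 10X and none of the 38 was higher (median -0.57).

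All 4 genes of complex II were lower in 10X, and SDHB, SDHC and SDHD were lower in 0X as well. SDHA, the flavoprotein that oxidizes succinate, had 6655, 6162, 6588 and 6163 in the 1X libraries, 5607 and 5718 in the 0X libraries and 5057, 5088, 5312 and 5172 in the 10X libraries. Both media lay below 1X without overlap, with -0.17 (SE 0.054, limma adjusted p = 0.0292) in 0X, which did not pass, and -0.31 (SE 0.040, limma adjusted p = 4.84e-06) in 10X. SDHB, which carries the iron-sulfur clusters, had 3590.2, 3275, 3383 and 3221 in the 1X libraries, 2498 and 2574 in the 0X libraries and 2773, 3067, 2684 and 2879.6 in the 10X libraries. The order of the media differed from that of most subunit genes, with 0X lowest, at -0.41 (SE 0.062, limma adjusted p = 3.35e-04), and 10X between 0X and 1X, at -0.24 (SE 0.051, limma adjusted p = 6.29e-04). SDHC, one of the membrane anchors, had 4441, 4127, 4127 and 4039 in the 1X libraries, 3131 and 3208 in the 0X libraries and 2462, 2469.6, 2440.0 and 2478 in the 10X libraries. It was lower in 0X, at -0.40 (SE 0.058, limma adjusted p = 2.43e-04), and lower again in 10X, at -0.76 (SE 0.043, limma adjusted p = 1.56e-10). SDHD, the other anchor, had 2605, 2586, 2461 and 2424 in the 1X libraries, 1835 and 1882 in the 0X libraries and 1774, 1960.0, 1795 and 1854 in the 10X libraries. Here 0X and 10X overlapped and both lay below 1X, with -0.44 (SE 0.062, limma adjusted p = 2.03e-04) and -0.45 (SE 0.049, limma adjusted p = 5.72e-07). The rise of SDHB from 0X to 10X, 0.17 (SE 0.052, limma adjusted p = 0.00741), no longer passed in 6 alternatives, among them the fits without 0X replicate 1, 0X replicate 2, 10X replicate 2 or 10X replicate 4 (limma adjusted p of 0.0173 to 0.0724). When totals were made equal the SDHB fall in 10X was -0.14 (limma adjusted p = 0.0178).

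Every gene of complex III was lower in 10X, and UQCRFS1, UQCR11 and UQCR10 also in 0X. UQCRFS1, the Rieske iron-sulfur protein, had 3273, 2944, 3230.4 and 2999 in the 1X libraries, 2304 and 2518 in the 0X libraries and 2339, 2391, 2403 and 2270.3 in the 10X libraries. Its 0X and 10X libraries overlapped and lay below 1X, with -0.37 (SE 0.067, limma adjusted p = 0.00122) and -0.40 (SE 0.047, limma adjusted p = 1.47e-06). The core proteins UQCRC1 and UQCRC2 had the least negative differences of the complex in 10X, -0.24 and -0.18, and the small subunit genes UQCR10, UQCRQ and UQCR11 the most negative, -0.92, -0.78 and -0.71. UQCRH, the hinge protein, fell by 0.31 on the log2 scale. The UQCRC2 fall no longer passed when totals were made equal (limma adjusted p = 0.0621) or after quantile normalization (limma adjusted p = 0.0165). UQCRHL, a near-identical copy of UQCRH, so that reads of the pair may be split between them and both values are uncertain, was at -0.32 and did not pass in 8 of the alternatives, among them the fits without 1X replicate 1, 1X replicate 4, 10X replicate 1, 10X replicate 2 or 10X replicate 3 (limma adjusted p of 0.0103 to 0.0218).

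Of the 12 complex IV genes 8 fell in 10X, COX7A2L rose, and COX6A1, COX4I1 and COX6B2 passed in neither direction. COX7A2L, known as the supercomplex factor SCAFI that joins complexes III and IV, had 2342, 2229.8, 2396 and 2180.4 in the 1X libraries, 2706 and 2683 in the 0X libraries and 2879, 3378, 3095 and 3250.0 in the 10X libraries. The 10X libraries were highest, the 0X libraries lay between them and 1X, and the groups did not overlap. The difference was 0.46 (SE 0.053, limma adjusted p = 1.25e-06) in 10X and 0.24 (SE 0.063, limma adjusted p = 0.0124) in 0X, which did not pass. Per kilobase it rose from 12.2 to 13.1% of the sum of COX7A2L and COX7A2 in 1X to at least 16.2% in 0X and 20.1 to 23.3% in 10X. COX7A2, the common paralog, measured 3141, 3082, 3288 and 3171 in the 1X libraries, 2493 and 2814 in the 0X libraries and 2319.9, 2286, 2321 and 2171 in the 10X libraries and fell in both media, with -0.26 (SE 0.064, limma adjusted p = 0.00846) and -0.48 (SE 0.044, limma adjusted p = 7.10e-08).

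The common paralogs of tissue-restricted isoforms came next. COX4I1, the regulatory subunit that can bind ATP, had 7976, 7716, 8068 and 7193 in the 1X libraries, 7371 and 7454 in the 0X libraries and 7115, 7603, 7536 and 7549 in the 10X libraries. No group stood apart, and the difference in 10X was -0.054 (SE 0.042, limma adjusted p = 0.296). COX6A1 had 7454, 7544, 6961 and 7434 in the 1X libraries, 6909.9 and 7381 in the 0X libraries and 6629, 6605, 6867 and 6996 in the 10X libraries, overlapping groups and a difference of -0.12 (SE 0.039, limma adjusted p = 0.017). COX6B1, at the face toward cytochrome c, had 4320.1, 4127, 4023 and 4039 in the 1X libraries, 3989 and 3783 in the 0X libraries and 2471, 2412, 2344 and 2687 in the 10X libraries. It was lower in 10X without overlap, at -0.74 (SE 0.048, limma adjusted p = 1.20e-09). COX7B had 3996, 4069, 3893 and 3982 in the 1X libraries, 3582 and 3694 in the 0X libraries and 2350.1, 2264, 2312 and 2449.6 in the 10X libraries, again lowest in 10X, at -0.77 (SE 0.042, limma adjusted p = 1.35e-10). COX8A had 3979, 3737, 3289 and 3893 in the 1X libraries, 3560.3 and 3526 in the 0X libraries and 2708, 2721, 2866 and 3054 in the 10X libraries, with -0.39 (SE 0.059, limma adjusted p = 2.35e-05) in 10X and with 0X overlapping 1X. COX6B2, the testis form of COX6B1 and the only tissue-restricted form of this complex that passed the filter, had 29.4, 35.8, 17.3 and 35.1 in the 1X libraries, 19.4 and 14.2 in the 0X libraries and 19.3, 15.2, 20.5 and 21.2 in the 10X libraries. The groups overlapped at this low level, and the difference of -0.56 (SE 0.282, limma adjusted p = 0.102) did not pass. COX7A1 stood at 8.70 per kilobase in 1X against 6863 for COX7A2, and COX4I2, COX6A2, COX7B2 and COX8C were at 3.10 per kilobase or less. Not scaled by length, the mean normalized count in 1X was 2.96 for COX7A1 and 1.68 or less for COX4I2, COX6A2, COX7B2 and COX8C. Counting 3 reads as the least that can be told from 0, the limit is 1.93 to 3.71 normalized counts, so levels of these genes below that were not detectable at this depth. COX5A and COX5B, nuclear subunits on the matrix side, were at -0.33 and -0.43 in 10X. With NDUFA4 added, complex IV had 9 lower and 1 higher of 13 genes (median -0.43).

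In complex V all 18 genes were lower in 10X, and ATP5PB, ATP5MC3, ATP5MG, ATP5F1B, ATP5MJ, ATP5MC1 and ATP5F1A also in 0X. The F1 head makes ATP. ATP5F1B, its catalytic beta subunit and the subunit gene with the highest counts, had 29064, 27652, 27462 and 27769.9 in the 1X libraries, 23698 and 24196 in the 0X libraries and 19196, 20200.0, 19975 and 19866 in the 10X libraries. The 3 media did not overlap, with -0.23 (SE 0.044, limma adjusted p = 0.00209) in 0X and -0.50 (SE 0.033, limma adjusted p = 1.17e-09) in 10X. ATP5F1A, the alpha subunit, had 14629, 13508, 13576 and 13062 in the 1X libraries, 11491 and 12126 in the 0X libraries and 9249.6, 9697, 9603 and 9357 in the 10X libraries. It followed the same order, with -0.21 (SE 0.054, limma adjusted p = 0.00951) and -0.53 (SE 0.039, limma adjusted p = 4.75e-09). ATP5F1C, the gamma subunit of the central stalk, had 7845, 7199.5, 7326 and 7272 in the 1X libraries, 6678 and 7070.1 in the 0X libraries and 5272, 5407, 5356 and 5290.1 in the 10X libraries. ATP5F1D, the delta subunit, had 2739, 2495, 2514 and 2674 in the 1X libraries, 2535 and 2442 in the 0X libraries and 1700.5, 1767, 1801 and 1921 in the 10X libraries. ATP5F1E, the epsilon subunit, had 3592, 3212, 3221 and 3381 in the 1X libraries, 2848 and 2880.2 in the 0X libraries and 2038, 1921, 2139.6 and 2095 in the 10X libraries. In these 3 the 10X libraries lay below all others, with -0.47 (SE 0.039, limma adjusted p = 1.64e-08) for ATP5F1C, -0.54 (SE 0.052, limma adjusted p = 1.27e-07) for ATP5F1D and -0.71 (SE 0.051, limma adjusted p = 3.23e-09) for ATP5F1E. In 0X none of the 3 passed, with differences between -0.23 and -0.065.

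The rotor ring of complex V is made of copies of 1 protein, subunit c, encoded by ATP5MC1, ATP5MC2 and ATP5MC3, whose products differ in the import signal that is removed. ATP5MC1 had 4167, 4199, 3692 and 3877 in the 1X libraries, 3101 and 2917 in the 0X libraries and 1328, 1417, 1450.0 and 1358 in the 10X libraries. The 10X libraries were lowest, at a fitted 34.9% of the 1X level, the 0X libraries lay between, and the groups did not overlap. The difference was -0.40 (SE 0.066, limma adjusted p = 5.56e-04) in 0X and -1.52 (SE 0.052, limma adjusted p = 3.77e-13) in 10X, the largest fall of a subunit gene. ATP5MC2 had 7260.1, 6772, 7013 and 6374 in the 1X libraries, 7371 and 7564 in the 0X libraries and 4508, 4876, 4854 and 5003 in the 10X libraries. It was lower in 10X, at -0.51 (SE 0.047, limma adjusted p = 6.86e-08), and its 0X libraries stood above 1X with a difference that did not pass, 0.12 (SE 0.058, limma adjusted p = 0.128). ATP5MC3 had 7558, 6998, 7519 and 6639.9 in the 1X libraries, 5469 and 5556 in the 0X libraries and 3601, 3935, 3709 and 3920.4 in the 10X libraries. It fell in both media, with -0.38 (SE 0.060, limma adjusted p = 4.76e-04) in 0X and -0.92 (SE 0.048, limma adjusted p = 7.28e-11) in 10X. Per kilobase of transcript, ATP5MC1 made up 29.0 to 32.6% of the 3 genes in 1X, 24.2 to 25.8% in 0X and 18.2 to 19.8% in 10X, and ATP5MC2 rose from 53.8 to 56.3% in 1X to 62.8 and 64.2% in 0X and 67.4 to 68.6% in 10X. ATP5MC1 lies at chr17:48892765-48895871, plus strand and shares no exon bases with another gene. It has 8 named pseudogenes and ATP5MC2 has 5, so the split of reads among these copies is uncertain. Of the other 10 genes of complex V, the stalks and membrane part, all were lower in 10X (median -0.47), from -0.42 for ATP5PO, which holds the head to the peripheral stalk, to -0.94 for ATP5ME. ATP5ME shares 61.3% of its exon bases with MYL5 on the other strand, and the part of shared reads in its values was not tested.

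**Figure D3:**
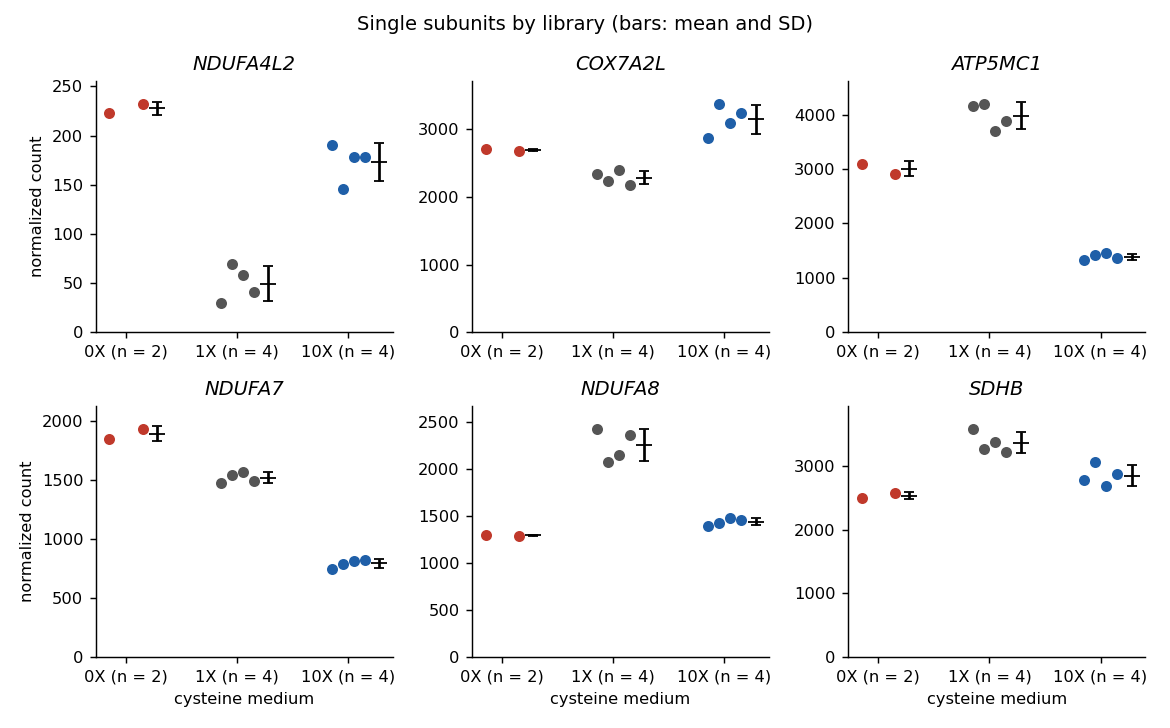
Normalized count (y axis, linear from 0) of NDUFA4L2, COX7A2L, ATP5MC1, NDUFA7, NDUFA8 and SDHB in each library (points) of 0X, 1X and 10X medium (x axis), with the mean and SD beside the points. NDUFA4L2 is above 140 in every 0X and 10X library and below 70 in every 1X library, and ATP5MC1 is between 1328 and 1450.0 in 10X.

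Across the complexes, 7 subunits that hold iron-sulfur clusters were set apart, NDUFS1, NDUFS7, NDUFS8, NDUFV1, NDUFV2, SDHB and UQCRFS1. In 10X 5 of them were lower and 2 passed in neither direction (median -0.40), and in 0X 2, SDHB and UQCRFS1, were lower (median -0.15). These are 71.4% lower in 10X, beside 22.9% of all genes and 42.6% of the abundant protein-coding genes. In 0X they are 28.6% lower, beside 8.51% and 20.8%. The medians of all 83 subunit genes were -0.50 and -0.14.

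The median canonical transcript of the 83 subunit genes was 763 bases, against 3616 for the other abundant protein-coding genes, and 34 of the 83 had 1000 bases or more. Among abundant protein-coding genes other than the subunits, 68.6% of the 427 with a canonical transcript under 1000 bases fell in 10X and 75 rose (median -0.40), against 40.6% lower and a median of -0.074 for the 7394 longer ones. In 0X against 1X and in 10X against 0X, 30.0% and 59.0% of those 427 fell. The subunit genes with transcripts under 1000 bases had a median of -0.54 in 10X (45 of 49 lower) and those with longer transcripts -0.46 (30 of 34 lower). Over the 83 subunit genes transcript length and the log2 difference in 10X had a Spearman rho of 0.32, and over 7821 other abundant genes 0.26, a description across genes that share the same libraries.

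When the trend of each library along transcript length and GC content was taken out, an alternative chosen after seeing the data, 51 subunit genes were lower and 6 higher in 10X against 1X with a median of -0.26, where 21.2% of all genes were lower. In 0X against 1X 14 were lower and 3 higher (median -0.073, 7.42% of all genes lower), and in 10X against 0X 45 were lower and 9 higher (median -0.19, 23.0% of all genes lower). The trend was taken out of protein-coding genes only. Shares of the abundant genes after its removal were not computed. Before it, 42.6% of them were lower in 10X against 1X, 20.8% in 0X against 1X and 37.4% in 10X against 0X. Whether the subunit genes then exceeded the abundant ones was therefore not tested. By complex the lower genes in 10X against 1X were then 27 of 40 in complex I with 3 higher (median -0.32), 3 of 4 in complex II (-0.27), 5 of 9 in complex III (-0.40), 3 of 12 in complex IV with 3 higher (-0.091) and 13 of 18 in complex V (-0.38). ATP5MC1 was then at -1.13, NDUFB3 at -0.70, NDUFB10 at -0.55, NDUFA7 at -0.53, COX7A2L at 0.49 and NDUFA4L2 at 2.28, each still past the threshold. NDUFS7, COX4I1, COX6A1 and NDUFB11 were then higher in 10X, by 0.43, 0.28, 0.27 and 0.17. Among the genes named above, the falls of NDUFS4, NDUFS3, NDUFS8, NDUFA2, SDHB, UQCRH, UQCRHL, UQCRC1, UQCRC2, COX5A, COX5B, COX7A2, COX8A, ATP5F1D, ATP5MC2, ATP5MJ, ATP5PO and NDUFC2-KCTD14 in 10X did not pass, with differences between -0.13 and 0.14. In 0X the falls of NDUFA8 (-0.73) and ATP5MC1 (-0.31) and the rise of NDUFA7 (0.41) still passed, and COX7A2L passed as well (0.29). Of the 27 genes called in 0X, 11 no longer passed, among them NDUFB3 (-0.22), NDUFA2 (-0.18), UQCR10 (-0.17), COX7A2 (-0.16), ATP5PB (-0.18), ATP5MG (-0.17) and ATP5MJ (-0.25), with limma adjusted p of 0.0112 to 0.0903.

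**Figure D4:**
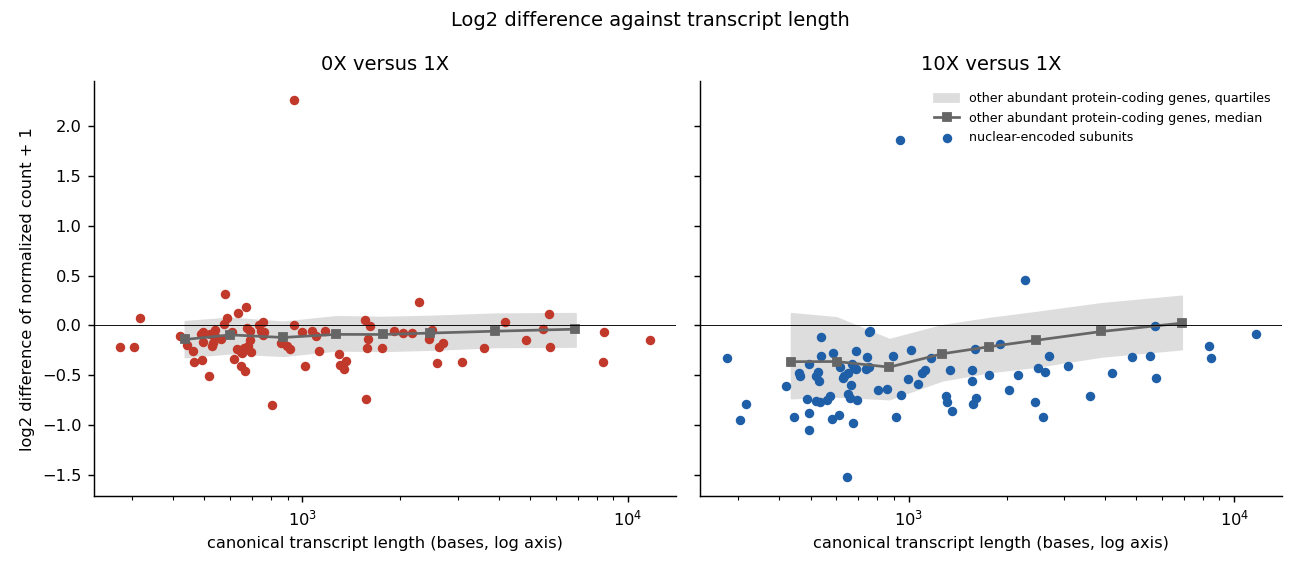
Log2 difference of normalized count + 1 from 1X (y axis) against the length of the canonical transcript in bases (x axis, log scale) for the 83 subunit genes (points), in 0X (left) and 10X (right). Squares and the grey band are the median and quartiles of other abundant protein-coding genes in bins of length. In 10X the median of other genes moves from -0.36 in the shortest bin to 0.023 in the longest, and most subunit genes lie below it.

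The subunits encoded in mitochondrial DNA are given beside their nuclear partners. In 10X all 13 of them were lower, with log2 differences of -7.79 to -6.00 (median -7.23), while the nuclear genes had a median of -0.50. In 0X 5 of the 13 were higher and none of the 13 lower (median 0.21), while the nuclear genes had a median of -0.14. MT-CO1, the catalytic core of complex IV, differed by 0.49 in 0X and -6.13 in 10X, and its nuclear partner COX4I1 had -0.061 and -0.054. MT-ATP6, beside which the rotor ring turns, differed by 0.23 in 0X, which did not pass, and by -7.25 in 10X, where ATP5MC1 fell by 1.52. The mitochondrial genome's share of counts was 5.15 and 5.71% in 0X, 4.51 to 5.05% in 1X and 0.117 to 0.146% in 10X.

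**Figure D5:**
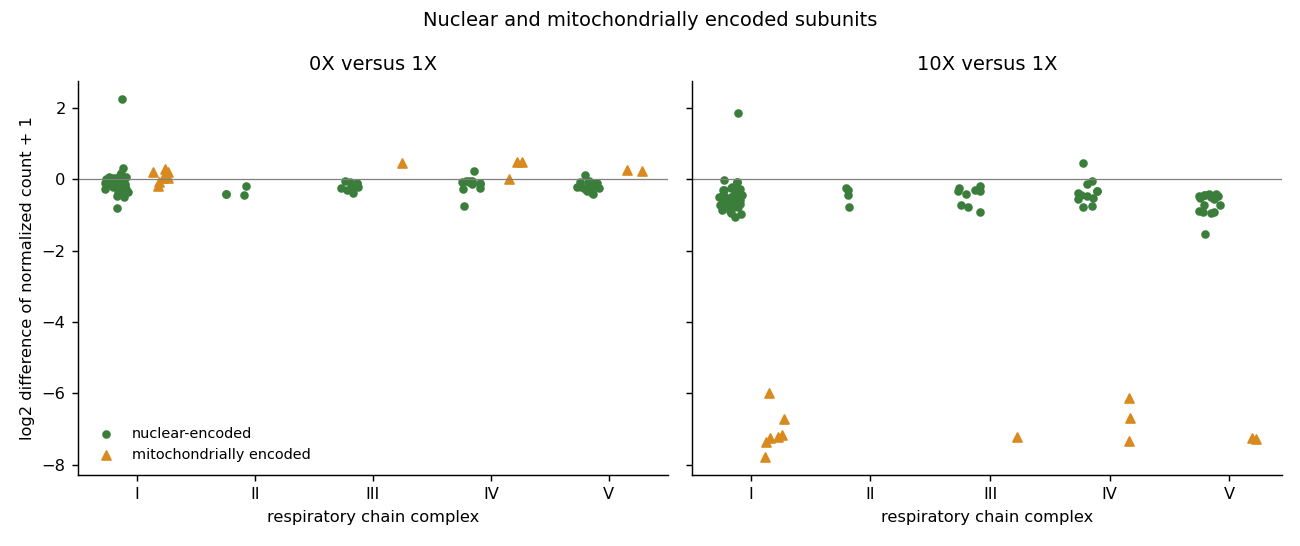
Log2 difference of normalized count + 1 from 1X (y axis) of nuclear-encoded subunit genes (circles) and mitochondrially encoded ones (triangles) of each complex (x axis), in 0X (left) and 10X (right). In 10X the 13 mitochondrial genes lie between -7.79 and -6.00 and the 83 nuclear ones between -1.52 and 1.86.

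Assembly factors, proteins that help build the complexes without staying in them, passed in both directions. Of 54 listed, 32 were lower and 6 higher in 10X (median -0.28), and 13 lower and 2 higher in 0X (median -0.11). In 10X these are 59.3% lower and 11.1% higher, beside 22.9% and 23.1% of all genes and 42.6% and 26.9% of the abundant protein-coding genes. In 0X they are 24.1% and 3.7%, beside 8.51% and 7.39% of all genes and 20.8% and 9.4% of the abundant ones. NDUFAF3, an assembly factor of the complex I Q module, was lower by 1.77 on the log2 scale in 10X and at 0.041 in 0X. COA3, COA4 and COX16, of complex IV, were at -0.90, -0.90 and -0.73 in 10X. ECSIT and NDUFAF5, of complex I, rose by 0.28 and 0.26 in 10X, and TTC19, of complex III, rose by 0.52 in 0X and 0.28 in 10X. SDHAF4, of complex II, rose in both media, by 0.87 in 0X and 0.40 in 10X. ATP5IF1, which inhibits ATP hydrolysis by complex V, was at -1.02 in 10X and -0.030 in 0X.

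Of 18 genes of electron carriers and entry, 10 were lower and 2 higher in 10X (median -0.25), and 1 was lower and 1 higher in 0X. In 10X these are 55.6% and 11.1%, beside 22.9% and 23.1% of all genes and 42.6% and 26.9% of the abundant protein-coding genes. In 0X they are 5.6% each, below the 8.51% and 7.39% of all genes and the 20.8% and 9.4% of the abundant ones. CYCS, cytochrome c, fell in both, by 0.51 in 0X and 0.33 in 10X. DHODH, which feeds electrons from pyrimidine synthesis, and ETFB, of the electron transfer flavoprotein, were at -1.07 and -0.92 in 10X. COQ5, an enzyme of ubiquinone synthesis, rose by 0.90 in 0X, and GPD2, the glycerol phosphate dehydrogenase of the membrane, by 0.40 in 10X.

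Of 9 transcription factors and coactivators of respiratory genes, 4 were lower and 2 higher in 10X, and 3 were lower in 0X. In 10X these are 44.4% lower, beside 22.9% of all genes and near the 42.6% of the abundant protein-coding genes. They are 22.2% higher, near the 23.1% of all genes and beside 26.9% of the abundant ones. In 0X 33.3% were lower, beside 8.51% of all genes and 20.8% of the abundant ones. PPARGC1B fell in both media, by 0.51 in 0X and 1.10 in 10X, while PPARGC1A, its better known relative, was at 0.39 in 0X, which did not pass, and at 1.32 in 10X, from low counts of 22.3 to 24.7 in 1X and 50.1 to 73.9 in 10X. ESRRA, the nuclear receptor that works with these coactivators, was at -0.72 in 0X and at -0.17 in 10X, which did not pass. NRF1, at -0.007 and -0.17, and TFAM, the packaging factor of mitochondrial DNA, with 10X at -0.059, passed in neither medium.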

How the data were processed

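Total RNA was sequenced after poly(A) selection from 10 HEK293T libraries, and the authors deposited 1 table of gene values for all of them. The deposited values are a signal, read counts per gene divided by the DESeq2 size factor of each library. The submitters' processing notes name STAR 2.7.10b, HTSeq, R 4.3.3, DESeq2 1.42.0 and GRCh38, whereas the study's methods name featureCounts as the counter and state that a read over more than 1 gene was dropped. Which of the counters made the table is not settled here, and the strand setting is not given in the sources used here. Gene symbols, coordinates and canonical transcript lengths came from GENCODE 44, which held 61463 of the 78894 identifiers.

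The filter on low values, 10 or above in no fewer than 3 of the 10 libraries, left 29045 genes. After adding a pseudocount of 1, log2 values entered limma 3.58.1 (lmFit, then eBayes with trend) with only the libraries of the 2 media compared, and p-values were adjusted by Benjamini-Hochberg over these genes. The threshold of a call was an adjusted p of 0.01. Standard errors are those of the moderated fit, and differences on this scale understate the change of low genes. All values (100.0%) came out as whole reads within 0.01 once the size factor was undone, so edgeR 4.0.16 and DESeq2 1.42.0 were run on the recovered reads as alternatives. For 0X versus 1X, 10X versus 1X and 10X versus 0X, limma called 4618, 13372 and 13954 genes, edgeR 4941, 13525 and 13834, and DESeq2 5388, 13816 and 13126. The limma step was tested on simulated data with known changes.

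The members and gene lists were chosen with earlier results of these data known. Values in every library are given for the 3 members with the largest rise and fall in each comparison, the complex II genes and the fixed subsets of complexes I, III, IV and V. No library was left out or counted as a duplicate: replicates of a medium differed by 3.54 to 14.78 times the counting noise (chi-square per degree of freedom). Replicate numbers are shared between media in the labels, but the deviations of same-numbered libraries had correlations of -0.028 to 0.039, so they were not treated as pairs. The alternatives were other pseudocounts, filters, scalings, tests and thresholds, a fit of all 3 media, each library left out, members without shared exon bases, and removal of the trend along transcript length and GC content. Counts limit precision only for the lowest genes, since 10 members had fewer than 1000 reads in their lowest library, and a floor of 3 reads covers counting error alone. Sequences are RefSeq promoters on GRCh38.p14. The values of 1 member are not reported here.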

Additional observations from a re-analysis of the deposited data

Results flagged for a closer look

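In each of 166 groups of 4 libraries (83 members in 1X and in 10X) the library farthest from the rest was compared with the range of its group by Dixon's ratio. In 9 groups the ratio was above the 95% critical value, and chance gives about 1 in 20 groups. In 1X replicate 4 was low for NDUFA5 (ratio 0.968, 2078 against 2327 to 2335) and for UQCRC2 (0.986, 6174 against 6603 to 6609) and high for NDUFB7 (0.861, 2409.7 against 2152 to 2188). In 1X replicate 1 was high for NDUFA6 (0.908, 1713 against 1580.1 to 1592) and for ATP5MF (0.896, 4945 against 4563 to 4603). In 1X replicate 2 was low for NDUFS8 (0.844, 2810.4 against 3067 to 3114) and for ATP5MK (0.928, 2901 against 3135 to 3153). In 1X replicate 3 was low for NDUFS1 (0.875, 5429 against 6365 to 6499), which passed in neither medium. In 10X replicate 1 was low for COX4I1 (0.862, 7115 against 7536 to 7603). No library was far from its group in more than 3 of these genes.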

How the results depend on the processing

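The direction of the medians and the call counts of 10X against 1X and 10X against 0X held under most alternatives, while the 0X counts depended on the number of libraries and on the filter. In 0X against 1X, 27 members were called with a median of -0.14. The count was 3 without a filter on low values, 17 with the transcript length and GC trend removed, 1 when a 2-fold change was also asked, and 12 among members without shared exon bases. It ranged from 3 to 35 with 1 library left out, and the lowest counts were those without 0X replicate 1 (3) and without 0X replicate 2 (6). The median was -0.11 with equal totals over nuclear genes, -0.086 after quantile normalization and -0.073 with the trend removed. In 10X against 1X, 77 were called with a median of -0.50. The count was 3 at 2-fold and 35 among members without shared exon bases. The median was -0.39 with equal totals, -0.46 with equal totals over nuclear genes, -0.43 after quantile normalization and -0.26 with the trend removed. Equal totals also moved the median of all genes to 0.12, with 8409 of 13606 calls higher. In 10X against 0X, 67 were called with a median of -0.36. The count was 2 at 2-fold and 29 among members without shared exon bases. The median was -0.33 without a filter, -0.28 with equal totals, -0.19 with the trend removed, -0.31 among members without shared exon bases, and -0.37 to -0.33 with 1 library left out.

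Signs turned only with the trend removed, among called members and the alternatives run. In 10X against 1X these were UQCRHL (0.14), SDHB (0.023), UQCRH (0.056), UQCRC1 (0.003), NDUFB11 (0.17), NDUFB9 (0.10), COX8A (0.070), NDUFS3 (0.009) and NDUFS8 (0.024), of which NDUFB11 was past the threshold (limma adjusted p = 0.00399). In 10X against 0X these were UQCRH (0.067), NDUFA2 (0.057), NDUFS6 (0.098), COX7A2 (0.071), NDUFB9 (0.074), COX8A (0.030) and NDUFB8 (0.069). The cause was not tested. With a replicate block the counts were 33, 77 and 66 and the medians -0.16, -0.50 and -0.38 in the order 0X against 1X, 10X against 1X and 10X against 0X. The numbers do not pair the libraries, and the block moved no count by more than 1.5 times. In 10X against 1X, edgeR and DESeq2 lost none of the 77 calls, and in 0X against 1X they lost 2 and 0 of 27.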
